A study of Homo sapiens with 8 samples.

Results

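The comparison described here is the depletion of RNF20 in NTera2/D1 cells that were kept undifferentiated, in the solvent DMSO. It rests on 4 of the 8 arrays of the series: the 2 titled DMSO/siRNF20 and the 2 titled DMSO/siLacZ, 1 of each kind under the number GF117 and 1 under GF120. siRNF20 is a small interfering RNA against RNF20, and siLacZ, directed at a bacterial gene that human cells lack, was the control. The other 4 arrays carry the same 2 knockdowns in cells given 10 µM retinoic acid (RA), and the series design states a treatment of 72 h. Per the labels the cells were grown as biological duplicates, and neither what the GF number stands for nor how many siRNA sequences were used is stated. All cells share 1 line, so p-values measure the spread between arrays of this line. Each siRNF20 array was set against the siLacZ array of the same GF number. Both pairs were also fitted in 1 model of group means, which leaves out the GF number. The description follows genes and pathways whose difference had the same direction in GF117 and GF120.

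RNF20 and RNF40 pair up as the ubiquitin ligase that monoubiquitylates histone H2B along the body of transcribed genes. This mark goes along with RNA polymerase II elongation, is deposited with the help of the PAF complex, and is linked to the methylation of lysines 4 and 79 of histone H3. USP44 is a deubiquitylase that removes the mark and is expressed in pluripotent cells. NTera2/D1 is a human embryonal carcinoma line: its cells resemble pluripotent stem cells and take on neural fates when given RA.

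Values are log2 probe-set intensities of an Affymetrix exon array, on which each gene is read by several array rows; a gene's value is the median of its rows, and 18732 genes were tested. A difference is always siRNF20 minus siLacZ on this log2 scale, so that 1 means a doubling, and levels of different genes are not compared. The 4 DMSO arrays carried the markers of the undifferentiated state. NANOG lay between 9.76 and 9.96 on them and between 6.02 and 7.19 on 3 RA arrays, POU5F1 between 7.43 and 7.75 against 4.62 to 5.73, and the RA-induced receptor gene RARB between 2.70 and 3.95 against 9.44 to 9.92. PAX6, a marker of neural progenitors, lay between 4.01 and 4.16 on the DMSO arrays and between 7.07 and 7.63 on the RA arrays. The GF117 RA siLacZ array stood apart from the other 7 (gene-level Pearson r of 0.135 to 0.239 with them, against 0.908 to 0.975 among the others) and was left out of the fit. Its median intensity was 18.4, and that of each of the others was 17.2.

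RNF20 was lower in both siRNF20 arrays. Its log2 intensity was 8.24 in GF117 and 8.10 in GF120 with siLacZ, and 6.48 and 5.98 with siRNF20. Both siRNF20 arrays lay below both controls, with differences of -1.76 in GF117 and -2.11 in GF120, so that the controls stood 3.83-fold higher on average. The mean difference was -1.94 (SE 0.23, n = 2 and 2), with an adjusted p of 0.237 by limma with Benjamini-Hochberg adjustment over all 18732 genes, the smallest of any gene and above the threshold of 0.05. The limma fit leaves out the GF number, while arrays of one number shared deviations from their group means (r of 0.297 to 0.364). Alternative fits with the number as a block did call RNF20, on the 7 arrays and on the 4 DMSO arrays. Their values and other calls stand with the processing alternatives. All 28 array rows of RNF20 were lower in both numbers, 26 of them at least 2-fold in each; the row differences ran from -3.17 to -0.72 in GF117 and from -3.73 to -0.27 in GF120. In the RA-treated pair of GF120, which shares no array with the DMSO comparison, RNF20 differed by -2.21. With 2 arrays against 2 the smallest two-sided p of an exact permutation test is 0.333.

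RNF40, the partner subunit of the ligase, was near its control level. It read 7.47 and 7.28 with siLacZ and 7.40 and 7.39 with siRNF20 (GF117, then GF120), with a mean difference of 0.02 (SE 0.19, n = 2 and 2) that turned to -0.07 without the GF120 siLacZ array. USP44 read 10.12 and 9.77 with siLacZ and 10.39 and 10.05 with siRNF20. The difference in USP44 was 0.27 in GF117 and 0.28 in GF120 (mean 0.27, SE 0.22), the groups overlapped, and 16 of its 18 rows were higher in both numbers. Without 1 of the 4 arrays in turn the USP44 value ran from 0.10 to 0.45. It was 0.08 in the RA pair of GF120. Neither RNF40 nor USP44 passed the test.

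**Figure D1:**
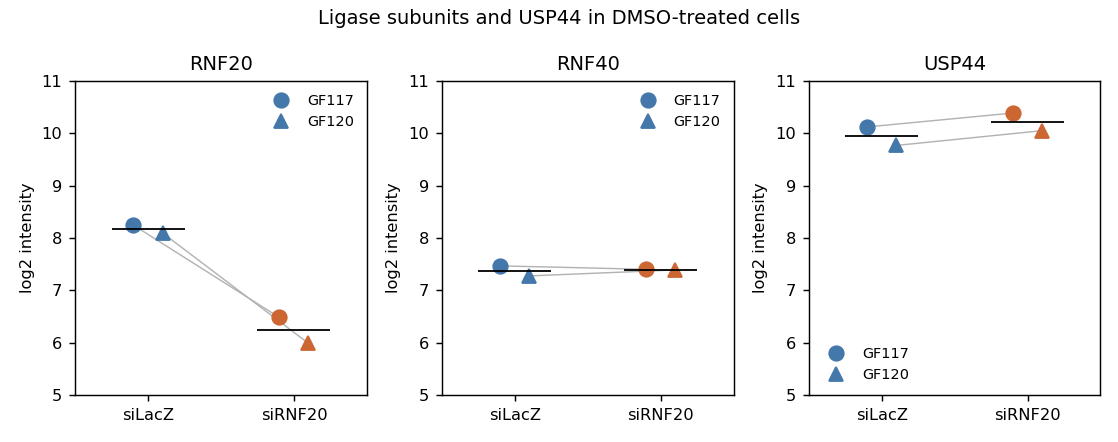
Log2 intensity of RNF20, RNF40 and USP44 on the 4 DMSO arrays, with siLacZ in blue and siRNF20 in orange, GF117 as circles and GF120 as triangles; black lines are group means (n = 2) and grey lines join the arrays of one GF number. RNF20 lies at 8.10 and 8.24 with siLacZ and at 5.98 and 6.48 with siRNF20, while the groups of RNF40 and USP44 overlap.

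Beyond RNF20, differences between siRNF20 and siLacZ were small beside the spread between arrays. limma called 0 of 18732 genes at an adjusted p under 0.05 (0%), and 519 genes (2.77%) had an unadjusted p under 0.05. In this fit, which leaves out the GF number, no member of any gene list below passed. The verbs of change are therefore not used for them, and their values are given as a description. With the number as a block on the 4 DMSO arrays, with 1 residual degree of freedom, 32 genes were called. The list members HEY2, DLL1, GAL and FN1 were among them. The SD of the differences over all genes was 0.370 in GF117 and 0.344 in GF120. Across genes, which are not independent replicates, the differences of the 2 numbers correlated at Pearson r = 0.0778. That correlation was -0.0139 over the 2690 genes with a mean level under 5 and 0.209 over the 1344 genes at 9 or above, so that the numbers shared more at bright genes than at dim ones.

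The same direction in both numbers was seen for 10106 genes (54%): 4721 (25.2%) were higher in both and 5385 (28.7%) lower in both. The siRNF20 and siLacZ arrays did not overlap for 2731 genes on the higher side (14.6%) and 2915 on the lower side (15.6%). A difference of at least 1.5-fold was found for 1805 genes in GF117 (9.64%) and for 1467 genes in GF120 (7.83%). It was shared in direction by 118 higher genes (0.63%) and 75 lower genes (0.4%), while 150 genes (0.801%) passed 1.5-fold in opposite directions. A single pair of arrays therefore said little about the other: of 916 genes at least 1.5-fold higher in GF117, 55.6% were higher in GF120, where 46.5% of all genes were. Of 889 genes at least 1.5-fold lower in GF117, 50.1% were lower in GF120, where 53.5% of all genes were.

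The 193 genes of the 1.5-fold rule were mostly dim. Only 16.1% of the 118 higher and 29.3% of the 75 lower genes had a mean level of at least 6, against 59.3% of all genes. The RA pair of GF120, whose arrays the rule did not use, gave the same direction for 78 of the 118 higher genes (66.1%) and 58 of the 75 lower ones (77.3%). Over all genes 8511 were higher in that pair (45.4%) and 10221 lower (54.6%). At least 1.5-fold higher in it were 37 of the 118 (31.4%, against 10% of all genes), and at least 1.5-fold lower were 35 of the 75 (46.7%, against 9.99%). These are counts with no test, and the RA pair carries the same number as one of the DMSO pairs. Dim genes also spread more: in GF117 the SD was 0.561 under level 5 and 0.225 at 9 or above. The shares of all genes are therefore no like background for these mostly dim genes.

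**Figure D2:**
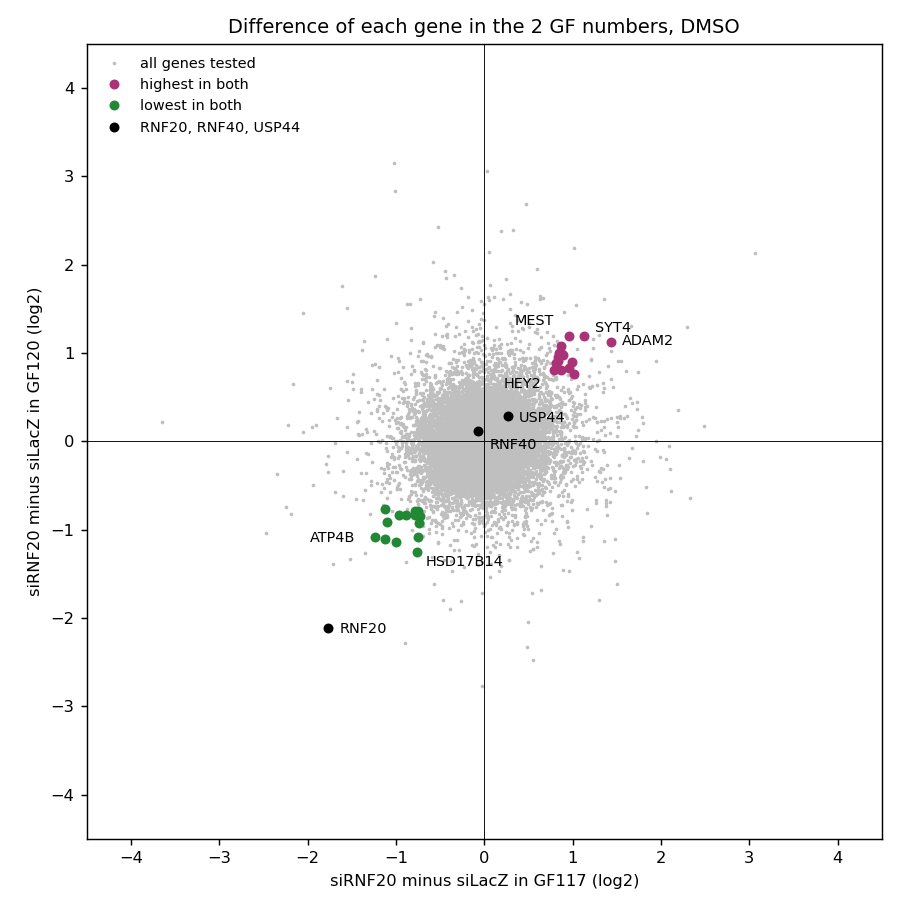
Log2 difference of each of 18732 genes in GF117 (x axis) against GF120 (y axis), DMSO arrays only; each point is a gene, and the genes chosen as highest or lowest in both numbers are coloured. RNF20 lies at -1.76 and -2.11, and the cloud of all genes shows almost no slope (r = 0.0778).

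The genes highest in both numbers were taken by the smaller of their 2 differences, among genes with at least 3 rows and a level at least 1 log2 unit above the median row; these differences chose them and are a description. SYT4, a synaptotagmin of secretory vesicles, read 5.02 and 4.62 with siLacZ and 6.15 and 5.82 with siRNF20, differences of 1.13 and 1.20. The siRNF20 arrays lay above both controls, as they did for each of the 15 genes on this side. The choice rests on the same arrays and favours this, so the 14.6% of all genes that do so is no like background. MEST, an imprinted gene expressed from the paternal allele, read 7.07 and 6.70 with siLacZ and 8.02 and 7.90 with siRNF20. EDIL3, a secreted integrin ligand, read 6.46 and 6.06 with siLacZ against 7.36 and 7.04, a mean difference of 0.94 (SE 0.22, n = 2 and 2). HEY2, a transcriptional repressor induced by NOTCH, read 6.95 and 6.38 with siLacZ and 7.74 and 7.19 with siRNF20.

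WNT9B, a secreted WNT ligand, read 6.20 and 6.30 with siLacZ and 7.03 and 7.22 with siRNF20, and differed by 0.92 in the RA pair. HAS2, which makes hyaluronan, read 5.16 and 5.18 against 5.98 and 6.07. HAS2 differed by 2.03 in the RA pair of GF120, more than in either DMSO pair (0.82 and 0.89). SLITRK1, a neuronal adhesion protein, differed by 0.87 and 1.08 and GPR37, a receptor of the nervous system, by 0.88 and 0.99; in the RA pair they differed by 0.64 and 0.61. The other members of this side were ADAM2 (1.43 and 1.13), the calcium-binding protein gene CALB1 (0.99 and 0.90), QRFPR (0.84 and 1.00), CALCB (0.84 and 0.96), the opioid precursor gene PDYN (0.96 and 0.83), GPR20 (0.87 and 0.81) and CFAP107 (1.02 and 0.76). Of the 15, 13 were higher in the RA pair as well and 7 at least 1.5-fold so, against 45.4% and 10% of all genes, which are no like background for dim genes. The exceptions were MEST (-0.94) and CFAP107 (-0.24), and ADAM2, CALB1, EDIL3 and CALCB lay within 0.07 of 0 there.

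The lowest genes in both numbers, after RNF20, were chosen in the same way. ADHFE1, a mitochondrial dehydrogenase, read 5.23 and 5.34 with siLacZ and 4.23 and 4.20 with siRNF20, a mean difference of -1.07 (SE 0.30, n = 2 and 2). HSD17B14, a steroid dehydrogenase, read 6.71 and 7.51 with siLacZ and 5.94 and 6.26 with siRNF20. The groups did not overlap, as for each of the 15 genes on this side, RNF20 among them. Here too the choice favours this, so the 15.6% of all genes without overlap is no like background. KRCC1 read 6.65 and 6.54 against 5.89 and 5.46, a mean difference of -0.92 (SE 0.25, n = 2 and 2). CDK19, a kinase of the Mediator complex, read 6.35 and 6.05 against 5.57 and 5.22, and differed by -1.37 in the RA pair.

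The non-coding FAM66C read 6.82 and 7.01 with siLacZ and 6.09 in both siRNF20 arrays, and AFDN-DT, a divergent transcript, read 6.44 and 6.54 against 5.69 and 5.76. ZNF117 (-1.12 and -0.77) and ZNF718 (-1.11 and -0.91) belong to a family of zinc finger genes that share sequence, and PCDHGA11 (-0.89 and -0.84) to the protocadherin gamma cluster, whose members share exons. The others were DHRS4L1 (-1.13 and -1.10), the gastric proton pump subunit gene ATP4B (-1.24 and -1.08), the posterior homeobox gene HOXB13 (-0.96 and -0.84), ARHGAP31 (-0.78 and -0.79) and IL2RA (-0.72 and -0.85). Of the 15, which include the siRNA's target RNF20, 14 were lower in the RA pair, where 54.6% of all genes were. At least 1.5-fold lower there were 10 of them, RNF20 included, against 9.99% of all genes, and IL2RA stood at 0.20. The shares of all genes are again no like background.

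The size of most of these differences depends on how dim rows are treated. Of the 29 genes besides RNF20, 3 stayed within 1.5 times of their difference in each of 15 alternatives: MEST, EDIL3 and KRCC1. Keeping only rows above the 75th percentile moved 21 of them by over 1.5 times, and left WNT9B at 0.05, SLITRK1 at 0.18, SYT4 at 0.38 and HSD17B14 at -0.35. It turned the sign of GPR20, DHRS4L1, ZNF718, ARHGAP31 and IL2RA. With no filter on dim rows ADAM2, CALCB and CFAP107 turned sign. The mean over rows in place of the median moved 16, among them PCDHGA11 (to -0.24), ZNF718 (to -0.18) and CDK19 (to -0.52). Leaving out single arrays also moved HEY2, which stood at 0.52 without the GF120 siLacZ array and without the GF117 siRNF20 array. HSD17B14 stood at -0.61 without the GF120 siLacZ array, GPR37 at 0.49 without that array and at 0.54 without the GF117 siRNF20 array. Without the GF117 siLacZ array ADAM2 stood at 0.78, CALCB at 0.58 and ARHGAP31 at -0.52; without the GF120 siRNF20 array CALCB stood at 0.52 and ARHGAP31 at -0.51.

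The pathways were read through 32 gene lists with 956 measured members, some genes in more than 1 list, and each list is set beside the shares of all genes (25.2% higher in both numbers, 28.7% lower in both). Bulk arrays cannot tell fewer cells of a type from less RNA per cell. The lists with the largest share of members lower in both numbers were the replication-dependent histones (18 of 23), the p53 targets (18 of 30), H3K4, H3K36 and H3K79 methylation (12 of 22), G2 and M phase (19 of 35), DNA double-strand break repair (16 of 32) and NOTCH and WNT signalling (22 of 47). The largest share higher in both was in cholesterol and lipid synthesis (16 of 26).

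**Figure D3:**
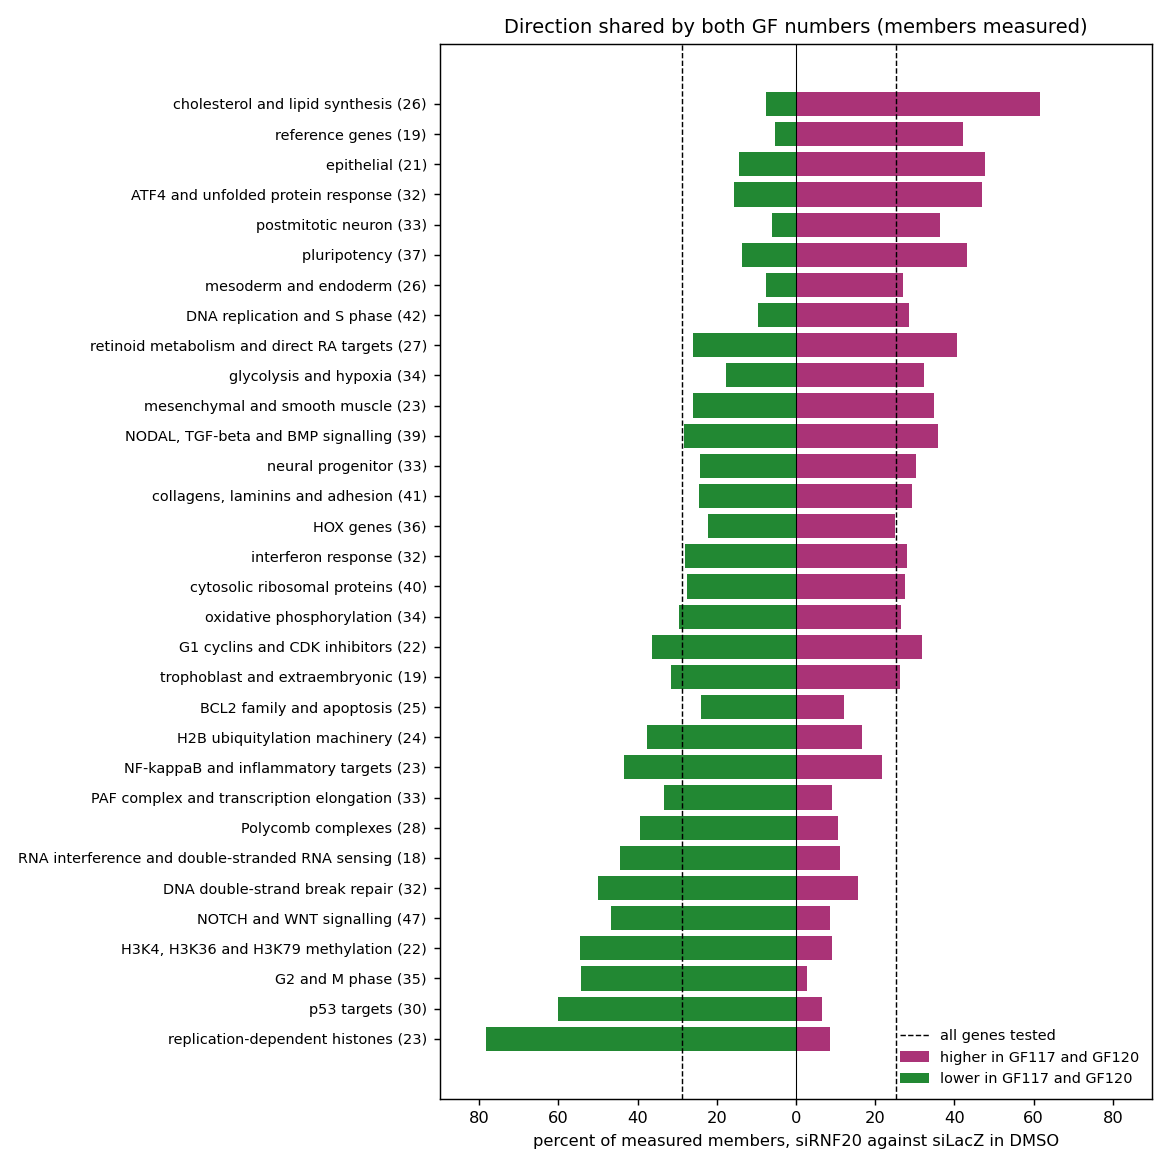
Percent of the measured members of each gene list (member number in brackets) that were higher (right, purple) or lower (left, green) with siRNF20 in both GF117 and GF120; dashed lines mark the shares of all 18732 genes, 25.2% and 28.7%. Histones, p53 targets, H3 methylation and G2 and M phase genes extend farthest to the left, and cholesterol and lipid synthesis farthest to the right.

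Of 30 p53 targets, the genes that p53 activates after DNA damage and other stress, 18 were lower in both numbers, 2 higher and 10 opposite, and none passed limma's test. ZMAT3, an RNA-binding protein, read 7.19 and 6.82 with siLacZ and 6.67 and 6.22 with siRNF20. GDF15, a stress-induced cytokine, read 5.57 and 5.79 against 4.99 and 5.06, and PHLDA3, an inhibitor of AKT, 6.56 and 6.68 against 6.06 and 6.19. For these 3 genes both siRNF20 arrays lay below both controls. In the list 9 of 30 members did so, where 15.6% of all genes did, and 1 lay above both. CDKN1A, the p21 inhibitor of cyclin-dependent kinases, read 6.77 and 6.29 with siLacZ and 6.38 and 5.50 with siRNF20, so that the groups overlapped while each pair was lower (-0.39 and -0.79). BTG2, which slows proliferation, differed by -0.46 and -0.54 and overlapped too.

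Others of the list were lower by similar amounts: DDB2, which recognises UV damage, by -0.43 and -0.41, the death receptor gene EDA2R by -0.44 and -0.55, TP53INP1 by -0.30 and -0.51, SESN1 by -0.51 and -0.39 and the ubiquitin ligase gene MDM2 by -0.30 and -0.19. The 2 members higher in both were PMAIP1, which encodes the pro-apoptotic protein NOXA (0.30 and 0.21), and AEN (0.08 and 0.04). The list's median difference was -0.29 in GF117 and -0.33 in GF120, where that of all genes was -0.02. In the RA pair of GF120 23 of the 30 were lower (54.6% of all genes were) and the median was -0.38, with CDKN1A at -0.98, EDA2R at -0.83 and ZMAT3 at -0.80. The list also differed between arrays of one kind: its median was -0.19 between the 2 siLacZ arrays and -0.26 between the 2 siRNF20 arrays (GF120 minus GF117), and the part of that spread in the siRNF20 difference was not tested. With the stricter filter on dim rows the medians were -0.05 in GF117 and -0.21 in GF120, with 15 of 30 lower in both and 3 higher; with the mean over rows they were -0.15 and -0.33, with 21 lower, and with no filter -0.19 and -0.26, with 17 lower and 5 higher.

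**Figure D4:**
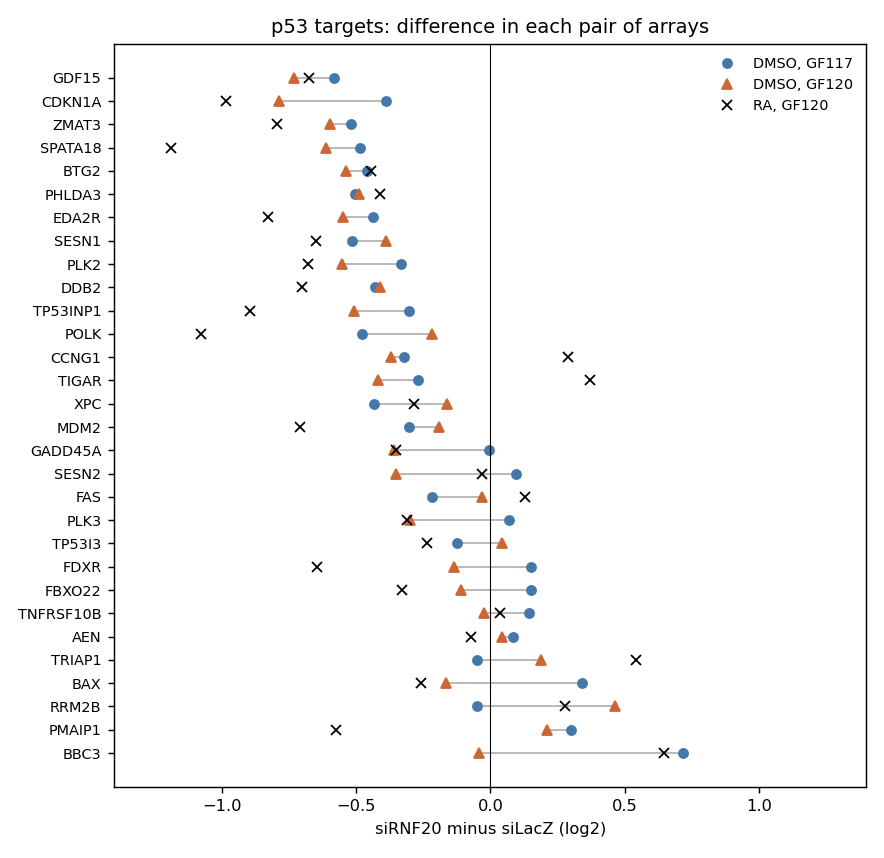
Log2 difference (siRNF20 minus siLacZ) of the 30 measured p53 targets in the DMSO pairs of GF117 (circles) and GF120 (triangles), joined by grey lines, and in the RA pair of GF120 (crosses). From GDF15 down to FAS, SESN2 excepted, 18 genes have both DMSO values below 0, and PMAIP1 and AEN have both above 0.

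Histone genes whose transcripts end in a stem loop and are made in S phase were lower in most cases. Of 49 listed, 23 were measured: 18 lower in both numbers, 2 higher and 3 opposite, with medians of -0.33 and -0.13. A further H2B symbol, HIST1H2BG, is shared by more than 1 current gene and so entered no list; its single row differed by -0.90 in GF117 and -2.28 in GF120, and it was picked with its values in view. H2BC21 read 8.29 and 7.32 with siLacZ and 7.18 and 6.85 with siRNF20. H2BC11 read 6.48 and 6.12 against 6.07 and 5.46, and the linker histone gene H1-4 11.64 and 11.39 against 11.36 and 11.26. The groups did not overlap for these 3 genes. For the linker histone gene H1-2 they did, at 8.64 and 7.96 with siLacZ and 8.15 and 7.52 with siRNF20. In the list 8 of 23 members were lower without overlap, where 15.6% of all genes were, and 1 was higher.

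The list differed more between arrays of one kind than in either pair, with a median of -0.48 for GF120 minus GF117 in siLacZ and -0.36 in siRNF20. The part of that spread in the siRNF20 difference was not tested. With RA, 19 of the 23 were lower in GF120 (median -0.30), where 54.6% of all genes were. Histone genes are short, near-identical in sequence and read by 1 to 6 rows each, so their values may share signal; with at least 3 rows, 9 were left, of which 7 were lower in both numbers.

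Since these genes lay on one side together, the 250 bases before the start of 3 of them are shown (RefSeq, GRCh38.p14, minus strand, written 5′ to 3′ along the gene), H2BC21 at chr1:149886683-149886932, H2BC11 at chr6:27132796-27133045 and H1-2 at chr6:26056471-26056720. Capitals mark matches, on either strand, to CCAAT, to the octamer ATTTGCAT and to TATAAA, motifs known from histone promoters; neighbouring TATAAA matches on the 2 strands overlap in H2BC11.
H2BC21: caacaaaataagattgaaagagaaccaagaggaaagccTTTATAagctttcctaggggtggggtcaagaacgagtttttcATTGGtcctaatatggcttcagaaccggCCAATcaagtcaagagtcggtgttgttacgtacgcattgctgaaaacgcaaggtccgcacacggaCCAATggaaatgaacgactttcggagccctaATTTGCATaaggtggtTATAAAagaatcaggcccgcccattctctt
H2BC11: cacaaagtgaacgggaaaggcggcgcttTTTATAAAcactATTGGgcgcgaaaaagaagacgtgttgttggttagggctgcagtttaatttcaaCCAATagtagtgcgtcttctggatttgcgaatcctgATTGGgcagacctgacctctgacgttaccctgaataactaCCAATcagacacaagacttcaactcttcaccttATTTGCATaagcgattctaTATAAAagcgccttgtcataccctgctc
H1-2: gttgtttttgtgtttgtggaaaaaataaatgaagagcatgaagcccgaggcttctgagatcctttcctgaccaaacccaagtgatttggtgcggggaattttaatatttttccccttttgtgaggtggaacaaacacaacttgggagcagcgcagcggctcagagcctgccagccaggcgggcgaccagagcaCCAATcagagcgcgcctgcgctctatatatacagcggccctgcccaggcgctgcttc

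H2BC21 and H2BC11 each hold the octamer, 46 and 47 bases before the start, with a TATAAA 30 and 28 bases before it. Of the searched strings H1-2 holds only a single CCAAT, 57 bases before the start. The search took exact strings, so variants such as the tatatata run of H1-2 are not marked. Of 20 measured histone genes with a promoter in the table, 19 hold CCAAT (95%), 10 the octamer (50%) and 16 TATAAA (80%). Among 27305 promoters of this length the shares were 33%, 1.66% and 11.1%. These matches describe letters in the window and were not related to the size of the difference.

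Of 35 genes of G2 and M phase, 19 were lower in both numbers and 1, the spindle motor gene KIF11 (0.18 and 0.01), was higher, with medians of -0.07 in GF117 and -0.20 in GF120. CDC25B, the phosphatase that starts mitosis, read 7.85 and 8.09 with siLacZ and 7.52 and 7.57 with siRNF20, and the centrosome kinase gene NEK2 8.35 in both controls against 8.03 and 7.98. The groups did not overlap for either. In the list 9 of 35 members were lower without overlap, where 15.6% of all genes were, and 1 was higher. The kinetochore motor gene CENPE differed by -0.46 in both numbers, the proliferation marker MKI67 by -0.51 and -0.28, and HMMR by -0.34 and -0.41. Most members, 31 of 35, were lower in the RA pair (median -0.40), where 54.6% of all genes were (median -0.05). Between the 2 siLacZ arrays the list's median was -0.10, and between the 2 siRNF20 arrays -0.26.

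Of 42 genes of DNA replication and S phase, 12 were higher in both numbers, 4 lower and 26 opposite, with medians of 0.03 and 0.06. The primase subunit gene PRIM1 differed by 0.37 and 0.16 and the origin recognition gene ORC6 by 0.26 and 0.16. Among 22 G1 cyclins and CDK inhibitors 7 were higher and 8 lower in both. RB1, the retinoblastoma protein gene, read 6.89 and 6.76 with siLacZ and 6.53 and 6.28 with siRNF20, and differed by -1.03 in the RA pair. In the BCL2 family and apoptosis list 3 of 25 were higher and 6 lower in both.

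Of 32 genes of DNA double-strand break repair, a process in which H2B ubiquitylation takes part, 16 were lower in both numbers and 5 higher (medians -0.08 and -0.05). MDC1, a scaffold at breaks, read 7.91 and 7.59 with siLacZ and 7.37 and 7.22 with siRNF20. RAD50, of the MRE11 complex, read 8.88 and 8.57 against 8.47 and 8.20. Both genes lay below both controls. In the list 8 of 32 members did so, where 15.6% of all genes did, and 4 lay above both. MDC1 and RAD50 differed by -0.64 and -0.83 in the RA pair. In that pair 31 of the 32 members were lower, with a median of -0.38, where 54.6% of all genes were (median -0.05). The median length of this list was 79.2 kb. In the RA pair, genes at level 6 or above had a median of -0.16 at 30 to 100 kb and -0.31 at 100 kb or more. The part of length in the list's value was not tested.

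The H2B machinery itself had 9 of 24 measured members lower in both numbers, the siRNA's target RNF20 among them, and 4 higher (medians -0.02 and -0.03). RNF168, a ubiquitin ligase of the DNA damage response, read 8.79 and 8.52 with siLacZ and 8.34 and 8.30 with siRNF20. In the list of the PAF complex and transcription elongation 11 of 33 were lower and 3 higher in both (medians -0.15 and -0.04, the first at -0.01 with the stricter filter on dim rows). CDK13, a kinase of the polymerase's C-terminal domain, read 8.75 and 8.15 against 8.11 and 7.77. LARP7, which holds the inactive form of P-TEFb, differed by -0.25 and -0.36, and AFF1, a scaffold of the super elongation complex, by -0.68 and -0.27.

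Of 22 genes of H3K4, H3K36 and H3K79 methylation, 12 were lower in both and 2 higher, with medians of -0.22 in GF117 and -0.05 in GF120. In the list 8 of 22 members were lower without overlap, where 15.6% of all genes were, and 2 were higher. NCOA6 differed by -0.53 and -0.26, MLLT10, a cofactor of the H3K79 methylase, by -0.24 and -0.25, the H3K36 methylase gene NSD2 by -0.43 and -0.20 and the demethylase gene KDM1A by -0.18 and -0.28. The median of this list between the 2 siLacZ arrays (GF120 minus GF117) was -0.20, close to its size in GF117. Among 28 Polycomb genes 11 were lower and 3 higher in both, with PCGF5 at -0.29 and -0.28 and CBX7 on the other side at 0.46 and 0.23.

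NOTCH and WNT signalling had 22 of 47 members lower in both numbers and 4 higher, with medians of -0.14 and -0.15 where the 2 control arrays differed by a median of -0.03. DLL1, a NOTCH ligand, read 7.16 and 7.21 with siLacZ and 6.44 and 6.14 with siRNF20 (-0.72 and -1.07), and -0.54 in the RA pair. The receptor gene NOTCH2 read 9.49 and 9.22 against 8.94 and 9.07, NOTCH1 7.97 and 7.81 against 7.62 and 7.66, and the target gene HES1 7.47 and 7.13 against 6.87 and 7.06. In each of these 4 genes both siRNF20 arrays lay below both controls. HEY2 and HEY1, also NOTCH targets, lay on the other side, HEY1 at 0.30 and 0.34 with overlapping groups. Of the 47, 16 were lower without overlap, where 15.6% of all genes were. With the stricter filter on dim rows 22 of 45 were lower in both and 8 higher, and the GF120 median was -0.015; with the mean over rows it was -0.065. The RA pair had 25 of the 47 lower, where 54.6% of all genes were, with a median of -0.03.

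Pluripotency genes, of which 37 of 39 were measured, were higher in both numbers in 16 cases and lower in 5. The core factors hardly differed: POU5F1 by 0.17 and 0.08, NANOG by 0.06 and 0.11, SOX2 by -0.01 and -0.06 and LIN28A by -0.21 and -0.08. DPPA4, a chromatin protein of pluripotent cells, read 8.98 and 8.99 with siLacZ and 9.53 and 9.58 with siRNF20. GAL, a neuropeptide gene of pluripotent cells, read 8.43 and 8.23 against 9.06 and 9.05, and was the member past 1.5-fold in both numbers. DPPA2 read 7.04 and 6.50 against 7.61 and 7.21. PRDM14, a repressor in pluripotent cells, was lower, at 8.74 and 9.29 with siLacZ and 8.32 and 8.71 with siRNF20. DPPA4 and GAL each differed by 0.50 in the RA pair, DPPA2 by -0.71 and PRDM14 by 0.04. In that pair 29 of the 37 were higher (median 0.23) and 8 lower, where 45.4% of all genes were higher. The list's median was 0.03 in GF117 and 0.12 in GF120.

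Markers of other cell types gave small differences on both sides. Among 33 genes of postmitotic neurons 12 were higher in both numbers and 2 lower, medians 0.11 and 0.14, but 9 and 8 with no filter on dim rows, when the GF117 median was -0.11. The microtubule protein gene DCX read 6.25 and 6.16 with siLacZ and 6.69 and 6.55 with siRNF20, below its range of 8.05 to 8.75 on the RA arrays, and the RNA-binding protein gene ELAVL2 differed by 0.52 and 0.68. Of 33 neural progenitor genes 10 were higher and 8 lower, with the cadherin gene CDH2 at 7.21 and 7.09 with siLacZ against 7.65 and 7.57. Among 26 mesoderm and endoderm genes 7 were higher and 2 lower: the organiser gene GSC read 6.19 and 5.66 against 6.63 and 6.47, and FOXF1, of lateral mesoderm, 7.08 and 6.29 against 5.94 and 5.76. Trophoblast and extraembryonic genes were divided at 5 higher and 6 lower of 19.

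Of 21 epithelial genes 10 were higher in both and 3 lower, among them the protease gene ST14 (0.51 and 0.54) and the cadherin genes CDH3 (0.34 and 0.50) and CDH1 (0.27 and 0.30). Of 23 mesenchymal and smooth muscle genes 8 were higher and 6 lower: fibronectin (FN1) read 9.64 and 8.89 with siLacZ and 10.04 and 9.82 with siRNF20, whereas the actin-binding protein gene TAGLN read 7.50 and 6.83 against 6.67 and 6.51. Collagens, laminins and adhesion genes were at 12 higher and 10 lower of 41. In the NODAL, TGF-beta and BMP list 14 of 39 were higher and 11 lower. SMAD3, which carries the NODAL signal, read 7.38 and 7.39 against 6.64 and 6.94, and the BMP antagonist gene NOG differed by 0.59 and 0.86.

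HOX genes and retinoid genes, which RA induces, showed no common direction. Of 36 HOX genes 9 were higher and 8 lower in both numbers. In the list of retinoid metabolism and direct targets of RA, 11 of 27 were higher and 7 lower, but 2 and 10 with the stricter filter on dim rows. CRABP2, which carries RA to the nucleus, read 9.18 and 9.04 with siLacZ and 8.46 and 8.68 with siRNF20, and ALDH1A1, an RA-synthesising enzyme, differed by 0.69 and 0.88.

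Cholesterol and lipid synthesis had 16 of 26 members higher in both numbers and 2 lower (medians 0.11 and 0.18). DHCR7, the last enzyme of cholesterol synthesis, read 9.78 and 9.60 with siLacZ and 10.26 and 10.05 with siRNF20. MSMO1, a sterol oxidase, read 9.39 and 8.98 against 9.61 and 9.63, and the desaturase gene SCD differed by 0.30 and 0.51. These 3 lay above both controls and were higher in the RA pair too, by 0.15, 1.05 and 0.46. In the list 8 of 26 members (30.8%) were higher without overlap, where 14.6% of all genes were, and 2 were lower. Among the reference genes, given below, 6 of 19 (31.6%) were higher without overlap and 1 was lower, so this share is not particular to the list. HMGCS1, which makes the precursor of mevalonate, read 9.88 and 9.05 with siLacZ and 10.03 and 9.73 with siRNF20, so that its controls differed by more than the pairs did. The list's median between the 2 siLacZ arrays was -0.28, and its part in the GF120 value was not tested. Of the 26, 17 were higher in the RA pair, where 45.4% of all genes were.

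In the ATF4 and unfolded protein response list 15 of 32 were higher in both and 5 lower. In it 13 members were higher without overlap, where 14.6% of all genes were, and 2 were lower. Its medians were 0.24 in GF117 but 0.02 in GF120, the latter at -0.04 with the mean over rows. The amino acid transporter gene SLC7A5 read 8.24 and 8.23 with siLacZ and 8.93 and 8.70 with siRNF20, and the chaperone gene HSP90B1 10.89 and 10.91 against 11.16 and 11.21. The RA pair had 21 of the 32 lower, where 54.6% of all genes were. Glycolysis and hypoxia genes were at 11 higher and 6 lower of 34, oxidative phosphorylation at 9 and 10 of 34 and cytosolic ribosomal proteins at 11 and 11 of 40. The reference genes had 8 of 19 higher and 1 lower (medians 0.13 and 0.07), with B2M at 0.32 and 0.74 and ACTB, the lower one, at -0.23 and -0.13.

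The lists of the interferon response, of RNA interference and double-stranded RNA sensing, and of inflammatory targets were not higher as groups. In the interferon response list 9 of 32 were higher and 9 lower in both numbers; OAS1 differed by 0.30 and 0.38 and the RNA sensor gene RIGI by -0.49 and -0.38. Of 18 genes of RNA interference and double-stranded RNA sensing 2 were higher and 8 lower, with the small-RNA effector gene AGO2 at 8.47 and 8.40 with siLacZ and 8.16 and 8.05 with siRNF20. Of 23 NF-kappaB and inflammatory targets 5 were higher and 10 lower, with the adhesion molecule gene ICAM1 at 6.69 and 7.20 against 6.32 and 6.50.

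Long genes were lower with siRNF20 than short ones, and the same order was present between control arrays. Among genes with a mean level of at least 6, the 2675 under 10 kb had median differences of 0.04 in GF117 and -0.01 in GF120, and the 1838 of 100 kb or more had -0.12 and -0.08. Of the long genes 47.4% were lower in both numbers and 14.9% higher, while 28.4% of the short ones were higher in both. In the RA pair the medians ran from 0.05 to -0.31. The 2 siLacZ arrays differed in the same manner, with a median (GF120 minus GF117) of 0.00 for short and -0.20 for long genes, so that a spread of this size was present with no depletion; its part in the siRNF20 differences was not tested. Spearman's rank correlation with length over 11038 genes, which are not independent, was -0.189 in GF117, -0.099 in GF120, -0.302 in the RA pair and -0.216 between the siLacZ arrays. Length also went with the number of array rows per gene (rank correlation 0.542). Median lengths were 79.2 kb for the double-strand break repair list, 62.0 kb for the H3 methylation list, 23.2 kb for the p53 targets and 0.50 kb for the histones, with 25.2 kb for all genes.

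**Figure D5:**
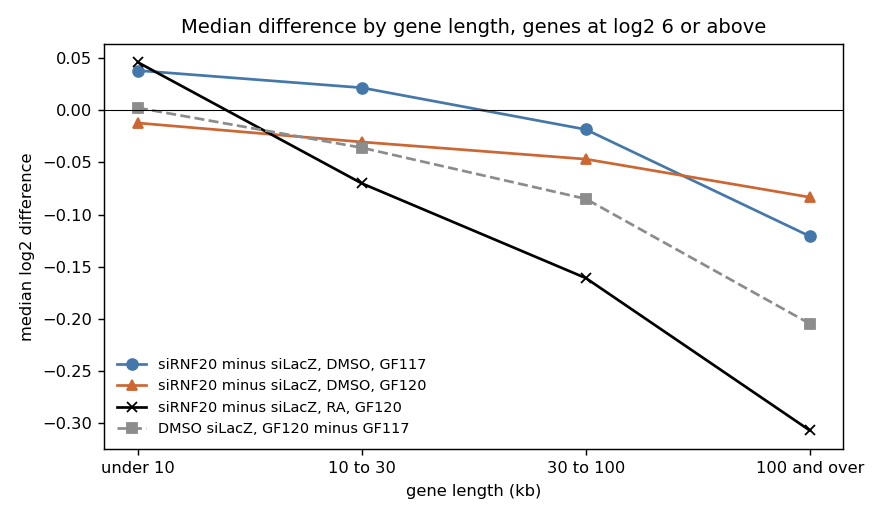
Median log2 difference by gene length for genes with a mean level of at least 6: siRNF20 minus siLacZ in the DMSO pairs of GF117 and GF120 and in the RA pair of GF120 (solid lines), and the 2 DMSO siLacZ arrays against each other (GF120 minus GF117, dashed line). All 4 lines fall with length, and at 100 kb and over the control arrays differ by -0.20, more than either DMSO pair (-0.12 and -0.08).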

How the data were processed

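Total RNA was biotin-labelled and hybridised to Affymetrix Human Exon 1.0 ST arrays, per the labels' protocols and the table of probe sets and genes. The authors deposited linear intensity values, 1 per array row and array; their background correction, normalization and genome build are not given in the sources used here. Of 1384231 rows, 354600 had 1 gene symbol, 14898 had several and 1014733 were not listed. Of 19497 symbols 16426 were current in RefSeq, 2950 were updated and 121 kept. Values were taken to log2 with no offset or further normalization. Rows with a mean at or below the median row (log2 3.97) counted as dim and were dropped, which kept 277621 rows, and the median of the rest gave a value for 18732 of 19426 genes.

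limma (version 3.58.1, R version 4.3.3, data.table version 1.17.8) fitted the 4 group means to 7 arrays with 3 residual degrees of freedom and an intensity trend, and p-values are two-sided with Benjamini-Hochberg adjustment over all genes. The RA arrays entered to share the estimate of the spread; the RA siLacZ group then held 1 array, assumed to vary like the others. The fit was checked on simulated data. Within each GF number 1 array stands against 1, with no test; the number of arrays limits the precision.

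The text names RNF20, RNF40 and USP44; the 15 highest and 15 lowest by the smaller within-number difference, with at least 3 rows and a level at least 1 log2 unit above the median row; and in each list up to 4 members on the same terms and its defining members. Further list members were picked with their values in view. The comparison, the 32 lists and the left-out array were chosen with earlier results of these data known. Gene lengths, for 99.4% of genes, and promoters came from RefSeq tables (GRCh38.p14). Alternatives changed the arrays, the GF number as a block, the trend, the row summary, the offset (16), the filter, the normalization, the rows per gene and the size rule. Python 3.11.15 with pandas 2.3.3, scipy 1.17.1 and matplotlib 3.10.9 did the rest.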

Additional observations from a re-analysis of the deposited data

Results flagged for a closer look

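MEST stood out because the 2 DMSO pairs and the RA pair of GF120 went opposite ways: siRNF20 minus siLacZ was 0.96 and 1.20 in DMSO and -0.94 in RA (log2). With RA it read 9.89 in the GF120 siLacZ array and 8.95 and 9.33 in the 2 siRNF20 arrays. RA gave 1 pair of arrays here, and the interaction did not pass (-1.83, limma's adjusted p with Benjamini-Hochberg adjustment 0.498). Over all 18732 genes limma called 0 interactions, with 737 at an unadjusted p under 0.05.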

How the results depend on the processing

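The main fit did not take the GF numbers as a pairing, since no label explains them, although the within-number differences do. Deviations from the group means of arrays with one number correlated at 0.297, 0.301 and 0.364, so that these arrays shared part of their spread. With the GF number as a replicate block the RNF20 difference was -1.94 with an adjusted p of 0.00152 (limma, 7 arrays), and 1 gene was called. With the block on the 4 DMSO arrays only, which leaves 1 residual degree of freedom, RNF20 was at -1.94 with an adjusted p of 1.45e-07, and 32 genes were called, 19 higher and 13 lower. These include 9 genes named above by rule (RNF20, ZNF718, HSD17B14, KRCC1, HEY2, WNT9B, EDIL3, MEST and SYT4), and DLL1, GAL, FN1 and HIST1H2BG (adjusted p = 0.00246). Leaving out 1 array at a time gave RNF20 differences from -2.18 to -1.69 and 0 to 1 calls, the 1 being PRDX2 (adjusted p = 0.0457) without the GF117 siRNF20 array; it read 9.12 on the GF120 siRNF20 array and 6.06 to 6.13 on the other 3 DMSO arrays. No other alternative called a gene.

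The 1.5-fold rule took 193 genes; it took 42 with an offset of 16, 306 with no filter, 80 with the stricter filter, 110 with at least 3 rows per gene, 20 at 2-fold and 1204 at a lower fold limit. The share of them with the same direction in the RA pair was 70.5%, and 83.3% with the offset, 83.8% with the stricter filter, 77.3% with at least 3 rows and 40.9% in the GF117 RA pair, which holds the array that stands apart. These counts need both GF numbers, so no array could be left out of them.

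Differences that turned sign were RNF40 (-0.072, and 0.12 without the GF117 one) without the GF120 siLacZ array; ADAM2 (-0.054), CALCB (-0.29) and CFAP107 (-0.19) with no filter; and GPR20 (-0.046), DHRS4L1 (0.29), ZNF718 (0.016), ARHGAP31 (0.22) and IL2RA (0.043) with the stricter filter. The cause was not tested. Of 192 list medians 42 moved, in 18 of 32 lists. Dim rows and 2 arrays a group limit these results.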
